A study of Mus musculus with 5 samples.

Results

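Small nucleolar RNA (snoRNA) genes were examined in colon tumors of Control and SIGLEC12 mice. Genes were taken by name, as every entry whose symbol begins with Snord or Snora followed by a digit, which gave 145 of the 52143 genes in the deposited table. Of these, 103 belonged to the C/D box class (Snord) and 42 to the H/ACA box class (Snora). They carried 138 distinct symbols, since 5 symbols were listed more than once. Membership was set by name alone, but the topic was chosen by earlier results of these mice, the log2 differences between SIGLEC12 and Control (those of Snord32a and Snord49b among them), so differences between the groups are given as descriptions.

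RNA-Seq was performed on tumors taken on day 87 from female mice that were 8 weeks old at the start. The mice were given tamoxifen for 5 days and azoxymethane (AOM, a carcinogen) at 10 mg/kg. They then received 4 cycles of 2.0% dextran sodium sulfate (DSS, which injures the colon epithelium) for 5 days each, with 14 days of recovery. Control mice carried Cre recombinase under the villin promoter, which is active in intestinal epithelium, and had no SIGLEC12 allele. SIGLEC12 mice (SIGLEC12-Villin1-Cre-ERT) carried the same Cre and 1 floxed copy of human SIGLEC12, behind an egfp stop cassette that Cre removes. Samples numbered 2 for Control (replicates 1 and 4) and 3 for SIGLEC12 (replicates 2, 3 and 4), 1 mouse each as far as the series describes them, and the transgene transcript was not analysed here. Values are log2(TPM + 1) unless TPM is named, where TPM is the usual scaled transcript abundance, per length and relative to all RNA of a sample.

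snoRNAs are short noncoding RNAs that work in the nucleolus. C/D box snoRNAs carry a C box near the 5′ end and a D box near the 3′ end and, with the methyltransferase fibrillarin, guide 2′-O-methylation of ribosomal and spliceosomal RNA, whereas H/ACA box snoRNAs fold into hairpins and, with the enzyme dyskerin, guide pseudouridylation. A few, such as U3, U8, U14 and U17, act in cutting or folding the ribosomal RNA precursor. In mammals most snoRNAs are trimmed out of introns of host genes. Many of these hosts encode ribosomal proteins or are noncoding RNAs whose spliced product has little known use.

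The sequences of the members on which the comparison turned are shown from GENCODE M21 on GRCm38, in which 141 of the 145 identifiers were found. The first set is of short C/D box snoRNAs that were lower in every SIGLEC12 tumor than in either Control tumor, with the C box (TGATGA) and D box (CTGA) in capitals. Snord32a (chr7:45127382-45127464, minus strand) lies in an intron of the ribosomal protein gene Rpl13a. Snord49b (chr11:62603079-62603150), Snord49a (chr11:62603450-62603521) and Snord65 (chr11:62604515-62604586) follow one another on the plus strand in introns of the noncoding RNA gene 2410006H16Rik. Snord21 (chr5:107904555-107904648, plus strand) lies in Rpl5, where it also overlaps an annotated exon.
Snord32a: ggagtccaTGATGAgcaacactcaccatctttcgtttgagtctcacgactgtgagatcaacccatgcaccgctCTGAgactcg
Snord49b: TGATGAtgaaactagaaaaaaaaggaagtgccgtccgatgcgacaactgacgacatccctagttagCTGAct
Snord49a: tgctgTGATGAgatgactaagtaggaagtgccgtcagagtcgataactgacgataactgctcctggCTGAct
Snord65: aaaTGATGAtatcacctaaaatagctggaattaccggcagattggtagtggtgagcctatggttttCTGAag
Snord21: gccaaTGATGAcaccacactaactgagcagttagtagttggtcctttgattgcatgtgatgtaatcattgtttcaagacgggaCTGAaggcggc

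Snord17 is shown because it was the longest C/D box member and was higher in the SIGLEC12 tumors. Snord15a and Snord15b are shown because they share a host gene and a name but not a pattern. Snord17 (chr2:144265979-144266216, minus strand) lies in an intron of Snx5, a sorting nexin gene. Snord15b (chr7:99479563-99479707) and Snord15a (chr7:99482785-99482932) lie on the minus strand in Rps3, the former overlapping an annotated exon and the latter in an intron. Identity between Snord15a and Snord15b was 66.0% of 162 aligned columns.
Snord17: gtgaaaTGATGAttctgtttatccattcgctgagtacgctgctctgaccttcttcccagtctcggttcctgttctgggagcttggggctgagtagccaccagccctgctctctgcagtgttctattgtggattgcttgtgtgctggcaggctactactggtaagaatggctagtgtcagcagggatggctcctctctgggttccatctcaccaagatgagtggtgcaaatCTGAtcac
Snord15b: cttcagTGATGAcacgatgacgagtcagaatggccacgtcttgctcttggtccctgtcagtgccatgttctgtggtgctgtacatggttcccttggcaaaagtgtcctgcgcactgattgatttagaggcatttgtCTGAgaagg
Snord15a: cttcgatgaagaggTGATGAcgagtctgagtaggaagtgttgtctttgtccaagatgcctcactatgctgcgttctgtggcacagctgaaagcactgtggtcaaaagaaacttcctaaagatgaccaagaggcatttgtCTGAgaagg

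For the H/ACA box class, the ANANNA match nearest the middle (the H box pattern) and the ACA near the 3′ end are in capitals. Snora23 (chr7:110046364-110046547, plus strand) lies in an intron of Ipo7, which encodes an importin, and was the one tested H/ACA member that was higher in every SIGLEC12 tumor. Snora73b (chr4:132352322-132352526) and Snora73a (chr4:132352775-132352979) lie on the minus strand in Snhg3 and are the mouse U17 RNAs. The pair is identical at 198 of 205 positions (96.6%), so reads from one can be assigned to the other and their separate values are uncertain.
Snora23: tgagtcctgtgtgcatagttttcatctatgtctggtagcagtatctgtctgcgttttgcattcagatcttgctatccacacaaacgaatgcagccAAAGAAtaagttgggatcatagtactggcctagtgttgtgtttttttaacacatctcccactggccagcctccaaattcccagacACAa
Snora73b: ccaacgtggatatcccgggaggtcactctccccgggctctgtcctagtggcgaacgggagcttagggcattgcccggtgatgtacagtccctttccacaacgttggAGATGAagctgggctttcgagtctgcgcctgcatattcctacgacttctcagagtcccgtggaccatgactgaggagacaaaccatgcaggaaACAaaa
Snora73a: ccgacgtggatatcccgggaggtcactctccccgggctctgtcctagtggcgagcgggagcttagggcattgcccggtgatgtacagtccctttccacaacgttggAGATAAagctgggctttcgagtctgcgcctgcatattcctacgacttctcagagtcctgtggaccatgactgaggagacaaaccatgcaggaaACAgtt

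The box patterns separated the classes named by symbol. TGATGA stood in the first 26 bases of 70 of the 99 C/D box members with a sequence (70.7%), in 0 of 42 H/ACA box members and in 4.85% of 5737 other annotated transcripts of 60 to 150 bases. CTGA in the last 16 bases was found in 93.9%, 7.14% and 10.9%, respectively. The reverse held for ACA in the last 7 bases, at 95.2% of H/ACA box members, 5.05% of C/D box members and 19.7% of the other transcripts. ANANNA, a loose pattern, stood between 35% and 65% of the length in 92.9% of H/ACA box members, 52.5% of C/D box members and 53.0% of the others. Searches were on the transcript strand only, and a missing match says only that these letters were not in the window. Length also separated the classes. C/D box members ran from 64 to 238 bases with a median of 84, shorter than the sequencing reads of 100 bases, and H/ACA box members from 121 to 205 bases with a median of 132.

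Fewer C/D than H/ACA box genes were detected in proportion. At a TPM of at least 1, Control replicates 1 and 4 had 26 and 37 of the 103 C/D box genes, and SIGLEC12 replicates 2, 3 and 4 had 26, 23 and 28. For the 42 H/ACA box genes the counts were 30 and 24 in Control and 21, 27 and 25 in SIGLEC12. The ranges of the groups touched or overlapped in both classes. In all, 67 C/D box genes and 38 H/ACA box genes were above 0 in at least 1 sample, and 36 C/D box genes and 4 H/ACA box genes were listed at 0 in every sample. At a TPM of at least 5 a sample had 8 to 12 C/D and 7 to 13 H/ACA box genes. TPM keeps no read depth, so the depth behind a value listed at 0 is unknown.

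Detection of C/D box genes differed by whether a longer annotated transcript contains their sequence. Some annotated transcripts of other genes contain the whole snoRNA sequence, and reads from that stretch match both. Of 51 C/D box genes contained in such a transcript, 4 (7.84%) reached a TPM of at least 1 in at least 2 samples and 32 (62.7%) were at 0 in every sample. Of the 48 not contained, 31 (64.6%) reached that level and 4 (8.33%) were at 0 throughout. In the H/ACA box class no such gap was seen, with 15 of 20 contained genes (75%) and 16 of 22 others (72.7%) reaching the level. Leaving out the imprinted families of the next paragraph, the C/D shares were 11.4% of 35 contained and 68.9% of 45 other genes. Whether containment lowered the values was not tested.

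**Figure D1:**
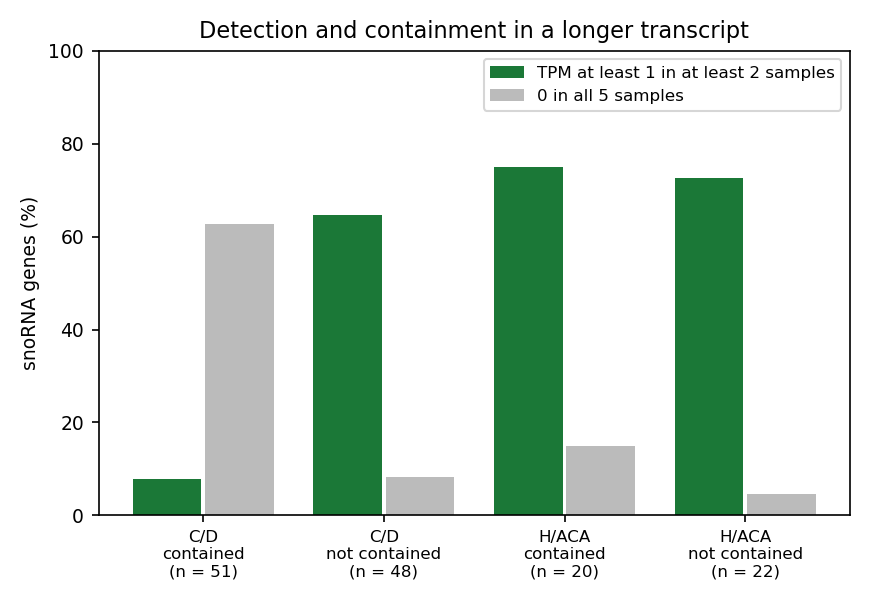
Share of snoRNA genes (%, vertical axis) that reached a TPM of at least 1 in at least 2 of the 5 samples (green) or were listed at 0 in all 5 (grey), by class and by whether a longer annotated transcript of another gene contains the whole sequence. The green bar of contained C/D box genes, at 7.84%, is far below the other green bars, which lie between 64.6% and 75%.

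Named families illustrate both patterns. Snord116, a tandem array in the imprinted Prader-Willi region that is best known from brain, was listed with 17 genes within Snhg14, and all of them were at 0 in every sample. Snord64 and Snord107 of the same region, 1 gene each, were also at 0. The Snord14 (U14) family, which acts in 18S ribosomal RNA maturation, had 4 listed genes, of which 2 were above 0 with a highest TPM of 1.01. Hspa8, a chaperone gene that hosts 3 of them, lay between 6.55 and 7.34. Gas5, a noncoding RNA host gene between 3.76 and 4.05 in all tumors, holds Snord47, Snord78 and 2 entries for Snord80. Of these, Snord47 reached a TPM of 0.0814 at most and the others were at 0, and all 4 overlap annotated Gas5 exons and are contained in Gas5 transcripts.

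Among detected snoRNAs a few made up most of the signal. The 5 most abundant C/D box genes, Snord17, Snord15b, Snord22, Snord104 and Snord32a, held between 67.4% and 80.0% of their class's TPM in a sample. The 5 most abundant H/ACA box genes, Snora74a, Snora73b, Snora73a, Snora57 and Snora44, held between 68.5% and 77.5% of theirs. The leading C/D box gene differed by group, since Snord15b was above Snord17 in both Controls and below it in all SIGLEC12 tumors. Over the 5 samples Snord22 in Snhg1 averaged 5.67 ± 0.39 (SD, n = 5), Snord104 at 5.27 ± 0.53 and Snord15a at 3.92 ± 0.16. Snora74a at 6.41 ± 0.30 and Snora73b at 6.24 ± 0.33 led the H/ACA box class, again within their spread, and Snora73a stood lower at 5.26 ± 0.29. These levels are per length, but for members shorter than the reads, such as Snord104 and Snord32a, they depend on an estimated effective length, so the order between short and long members is uncertain.

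**Figure D2:**
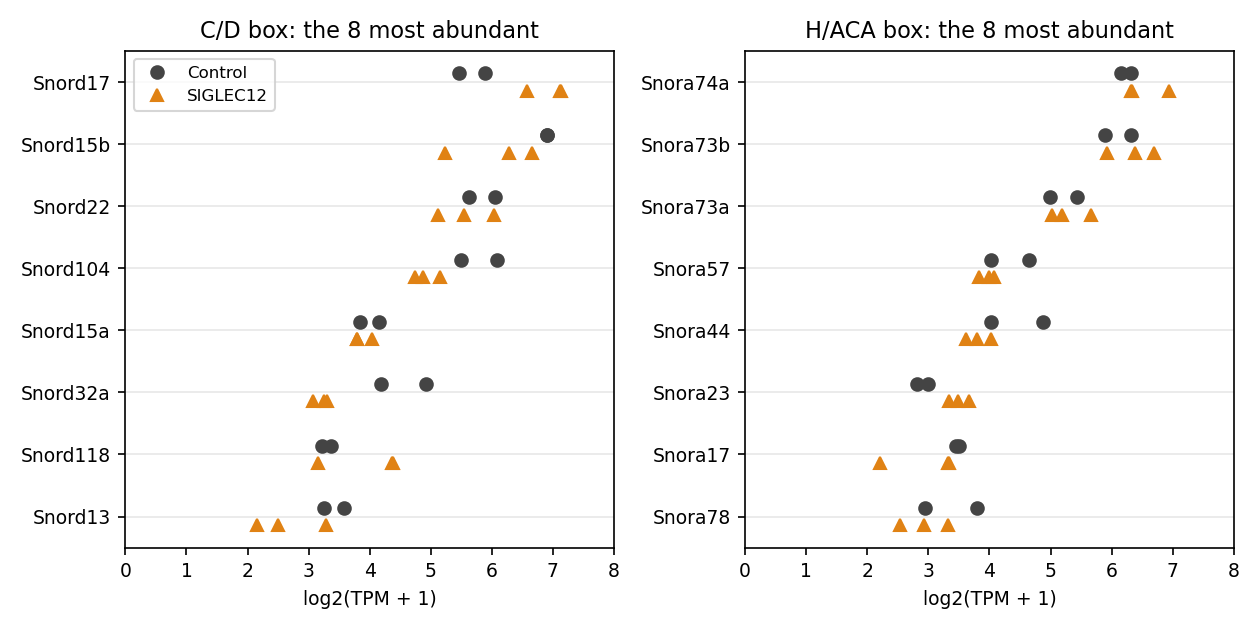
Level of the 8 most abundant genes of each class, as log2(TPM + 1) on the horizontal axis, with 1 point per tumor (circles, 2 Control; triangles, 3 SIGLEC12). The Control points lie to the right of all SIGLEC12 points for Snord15b, Snord104, Snord32a and Snora17, and to the left of them for Snord17 and Snora23.

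The summed C/D box TPM was 464 and 401 in Control replicates 1 and 4 and 403, 409 and 292 in SIGLEC12 replicates 2, 3 and 4. The summed H/ACA box TPM was 358 and 270 in Control and 290, 391 and 289 in SIGLEC12. Groups overlapped in both sums. The H/ACA to C/D ratio of TPM was 0.771 and 0.672 in Control and 0.720, 0.955 and 0.990 in SIGLEC12, also overlapping.

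A TPM depends on the rest of the RNA, and that differed between groups. The 4 most abundant entries of the table, all annotated as short miRNA genes, took 85.9% and 83.8% of the TPM in Control and 80.0%, 77.2% and 77.2% in SIGLEC12, while protein-coding genes took 5.70% and 6.73% against 8.85%, 8.75% and 9.72%. As a share of the protein-coding total, snoRNAs came to 1.44% and 0.996% in Control and to 0.784%, 0.915% and 0.598% in SIGLEC12, without overlap. The C/D share was 0.815% and 0.596% in Control and 0.456%, 0.468% and 0.300% in SIGLEC12, also without overlap, while the H/ACA share overlapped at 0.628% and 0.401% against 0.328%, 0.447% and 0.298%. The summed TPM overlapped between groups, so the gap came with the choice of denominator. In bulk tumors, fewer cells of a type and less RNA per cell cannot be told apart, and size selection against short RNA is not given.

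The tissue itself was not the same in all tumors. The mean log2(TPM + 1) of 10 columnar epithelium markers was 3.89 and 5.29 in Control and 5.52, 5.45 and 6.24 in SIGLEC12, and the log2 difference was positive for all 9 tested ones. The mean of 7 squamous epithelium markers, which glandular colon epithelium lacks, was 7.10 and 5.24 in Control and 5.53, 4.66 and 4.68 in SIGLEC12, with negative differences for all 7. No marker of either list was called by limma at the adjusted threshold. Means for 6 smooth muscle markers ran from 2.99 to 4.22, for 6 fibroblast markers from 1.17 to 2.85, for 6 leukocyte markers from 0.53 to 1.21 and for 6 nerve markers from 0.17 to 0.41, the highest smooth muscle and fibroblast values both being in SIGLEC12 replicate 2. Control replicate 1 stood apart, with the highest squamous level, the lowest columnar level and 7947 genes at a TPM of at least 1 against 9532 to 10090 in the other tumors. The part of these markers in the snoRNA values was not tested.

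Of the snoRNA genes, 67 (36 C/D and 31 H/ACA) had a TPM of at least 1 in at least 2 samples and were tested with limma among 10338 genes. Snord85 was tested under 2 identifiers with identical values, and Snord7, above 0 but below that level, was listed under 4, so these single measurements are counted more than once. Only 1 C/D box gene entered through the Control samples alone and 2 through the SIGLEC12 samples alone. With Benjamini-Hochberg adjustment (p under 0.05, at least 2-fold), limma called 0 of the 67 higher and 0 lower, beside 0.0% of all tested genes in either direction, and the smallest adjusted p of a member was 0.0974. An unadjusted p of at most 0.05 was reached by 3 members that were higher, beside 33.4% of all tested genes, and by 9 that were lower, beside 0.909%. Adding the 2-fold minimum left 2 higher (Snord17 and Snord42b, beside 3.97%) and 5 lower (Snord21, Snord59a, Snord65, Snord49b and Snord32a, beside 0.445%), all of the C/D box class. Of these, Snord42b and Snord59a passed the filter only through the group in which they were high. Snord49b and Snord32a are among the results by which the topic was chosen, so nothing is read from these counts. The fit that follows rests on a lone Control, and its lower calls again include Snord59a and Snord32a. Nothing is read from its counts or its adjusted p either. Without Control replicate 4, which leaves Control replicate 1 as the lone Control, limma called 5 members lower at the adjusted threshold (Snord21, Snord59a, Snord104, Snord65 and Snord32a, with a smallest adjusted p of 0.0414), beside 0.938% of all tested genes lower and 9.31% higher in that fit, and the unadjusted threshold took 9 lower, beside 1.41%.

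All SIGLEC12 values lay below both Control values for 13 of the 67 tested members (19.4%), beside 1.67% of all tested genes, and above both for 3 members (4.48%), beside 54.1%. The lower set held 9 C/D box genes (Snord83b, Snord21, Snord59a, Snord49a, Snord104, Snord65, Snord15b, Snord49b and Snord32a) and 4 H/ACA box genes (Snora62, Snora30, Snora17 and Snora68). The higher set held Snord17, Snora23 and Snord42b. Snord32a and Snord49b are among the results by which the topic was chosen. Snord59a and Snord42b passed the filter only through the group in which they were high, so nothing is read from these counts. Snord42b, Snord49a, Snord59a, Snord65, Snord83b and Snora62 are named here after their values were seen.

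The median log2 difference (SIGLEC12 minus Control) was -0.57 over the 36 tested C/D box genes, of which 28 were negative (77.8%), and -0.03 over the 31 tested H/ACA box genes, of which 17 were negative (54.8%). Over all tested genes the median was 0.38 and 12.8% were negative. With every gene above 0 in at least 1 sample included, the medians were -0.24 for 67 C/D, -0.10 for 38 H/ACA and 0.02 for all genes. Rescaling each sample to the same protein-coding total lowered the median of all genes to 0.01, and the class medians to -0.88 and -0.38, with 86.1% of C/D, 80.6% of H/ACA and 48.9% of all genes negative. On that scale the unadjusted threshold took 0 members higher, beside 0.368% of all genes, and 16 lower (9 C/D and 7 H/ACA), beside 1.37%. The lower ones again include Snord32a, Snord49b and Snord59a, so nothing is read from these counts. Without Control replicate 1 the medians were -0.59 for C/D and 0.04 for H/ACA, and the unadjusted threshold took 4 members higher, beside 1.38% of all tested genes, and 6 lower, beside 1.15%. The order of the classes turned without Control replicate 4, when the medians were -0.23 for C/D and -0.38 for H/ACA.

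**Figure D3:**
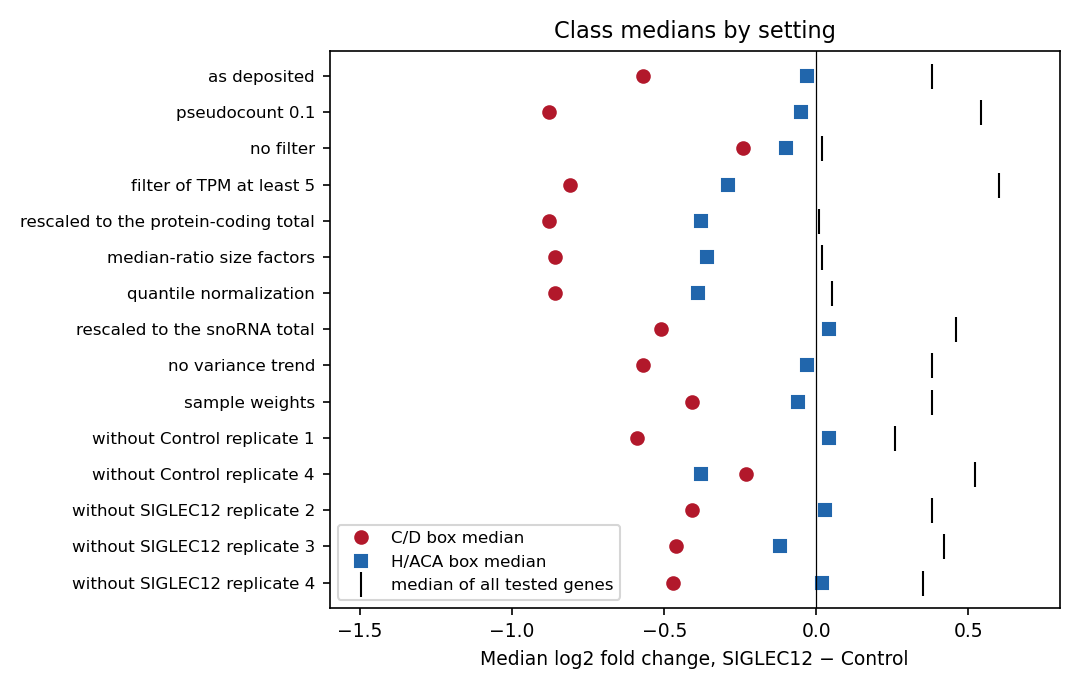
Median log2 difference (SIGLEC12 minus Control, horizontal axis) of the tested C/D box genes (red circles), the tested H/ACA box genes (blue squares) and all tested genes (black ticks), for the values as deposited and for each other setting. Both class medians lie to the left of the tick in every row, and C/D lies to the left of H/ACA in every row but the one without Control replicate 4.

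Transcript length differed between the classes, so the difference was also read within ranges of length. Other genes were all tested genes that are not members, and genes annotated as snoRNA under other symbols were not left out. C/D box genes under 100 bases had a median of -0.66 (n = 26), and other tested genes of that length a median of -0.36 (n = 217). From 100 to under 150 bases the median was -0.14 for C/D (n = 8), -0.20 for H/ACA (n = 26) and -0.24 for other genes (n = 320). The 5 H/ACA box genes of at least 150 bases had a median of 0.22, and other genes from 150 to under 300 bases one of 0.46 (n = 159). The order of the classes from 100 to under 150 bases turned with the setting, at -0.59 and -0.45 for C/D and H/ACA on the protein-coding scale and at -0.13 and -0.48 without Control replicate 4. The part of length in the class medians was not tested. Across 66 tested members Spearman's rho of length with the log2 difference was 0.38 as a description (0.22 over 35 C/D and 0.29 over 31 H/ACA), and these points share the same 5 samples.

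**Figure D4:**
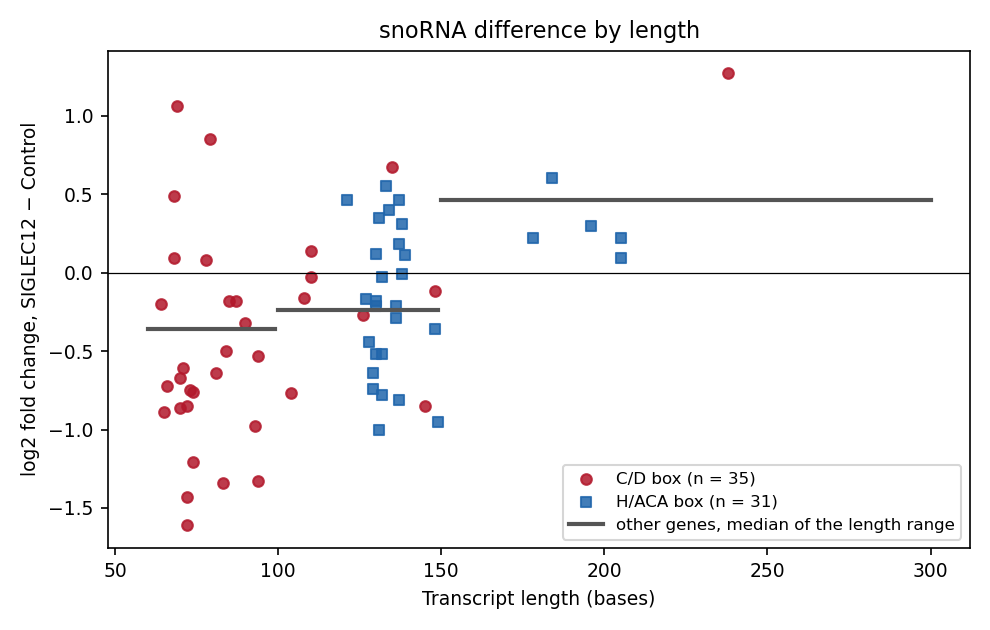
Log2 difference (SIGLEC12 minus Control, vertical axis) of the 66 tested snoRNA genes with a known length against transcript length in bases (horizontal axis), C/D box genes as red circles and H/ACA box genes as blue squares, with grey bars for the median of other tested genes under 100, from 100 to under 150 and from 150 to under 300 bases. C/D box genes under 100 bases centre on -0.66, and the one C/D box gene above 150 bases, Snord17, stands at 1.27.

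Other noncoding RNA classes are given for comparison. The median log2 difference was -0.36 for 242 miRNA genes, -0.32 for 54 rRNA genes, 0.01 for 120 spliceosomal snRNA genes and -0.01 for 17 scaRNA genes, the guides of snRNA modification in Cajal bodies. Both quartiles of the rRNA genes were also -0.32, so many of those entries may repeat 1 measurement. For 119 genes annotated as snoRNA under other symbols the median was -0.14. Protein-coding genes had a median of 0.40 over 9222 genes.

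Among C/D box guides, Snord32a, which guides ribosomal RNA methylation, was at 4.92 and 4.18 in Control replicates 1 and 4 and at 3.30, 3.07 and 3.25 in SIGLEC12 replicates 2, 3 and 4. The Control mean was 4.55 ± 0.53 (SD, n = 2) and the SIGLEC12 mean 3.21 ± 0.12 (SD, n = 3), a log2 difference of -1.34 (SE 0.27). All SIGLEC12 tumors were below both Controls, and the SIGLEC12 tumors were close to one another. The other 3 snoRNAs of Rpl13a were low. Snord34 and Snord35a differed by -0.67 (SE 0.38) and -0.32 (SE 0.35) with overlapping groups, and Snord33, which reached 2.09 in Control replicate 1 but lay between 0.26 and 0.41 elsewhere, was too low to be tested. Rpl13a itself, which encodes a protein of the large ribosomal subunit, was at 7.04 and 6.77 in Control and 7.73, 7.94 and 7.8 in SIGLEC12. Its log2 difference was positive (0.92, SE 0.23, adjusted p = 0.0974 by limma), as it was for 87.2% of all tested genes. After rescaling to the protein-coding total Rpl13a stood at 0.37.

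The 3 snoRNAs of 2410006H16Rik, whose sequences are given above, were all lower in SIGLEC12 without overlap, as were 1.67% of all tested genes. Snord49b is among the results by which the topic was chosen, so nothing is read from this count. Snord49b was at 3.63 and 3.41 in Control and at 1.95, 2.76 and 1.57 in SIGLEC12, a log2 difference of -1.43 (SE 0.35). Snord49a was at 2.67 and 3.54 in Control and at 1.95, 2.51 and 2.30 in SIGLEC12, a difference of -0.85 (SE 0.31). Snord65 was at 3.28 and 1.82 in Control and at 0.78, 1.06 and 0.99 in SIGLEC12, a difference of -1.61 (SE 0.40). The Control values of Snord65 lay farther from each other than Control replicate 4 lay from any SIGLEC12 tumor. The host RNA was at 2.79 and 2.74 in Control and at 3.60, 4.41 and 3.64 in SIGLEC12, a difference of 1.12 (SE 0.29, adjusted p = 0.0974 by limma). The snoRNAs and the RNA they are cut from lay on opposite sides of 0, also after rescaling to the protein-coding total. Identity was 69.2% between Snord49a and Snord49b, 56.4% between Snord49b and Snord65 and 56.2% between Snord49a and Snord65.

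Snord21 in Rpl5, a gene for a large-subunit ribosomal protein, was at 4.15 and 2.83 in Control and at 1.86, 2.17 and 2.45 in SIGLEC12 (log2 difference -1.33, SE 0.40, adjusted p = 0.101 by limma). Control replicate 1 stood well above the other 4 tumors. Snord59a in Atp5b, which encodes a subunit of the mitochondrial ATP synthase, was at 1.82 and 1.33 in Control and at 0, 0.45 and 0.63 in SIGLEC12 (-1.21, SE 0.26), near the floor of the scale. Snord104, for which no host gene is annotated, was at 6.08 and 5.49 in Control and at 4.87, 5.15 and 4.75 in SIGLEC12 (-0.86, SE 0.28, adjusted p = 0.104 by limma). These C/D box guides, all below 100 bases, are grouped here because they were lower in every SIGLEC12 tumor, as were 1.67% of all tested genes. Snord104 was the most abundant of them, and Snord59a passed the filter only through the Control samples. Over all 26 tested C/D box genes under 100 bases, 21 differences were negative and 5 positive, so nothing is read from the shared direction.

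Snord15b and Snord15a, both cut from Rps3, differed in pattern. Snord15b was at 6.91 and 6.90 in Control and at 6.66, 6.28 and 5.23 in SIGLEC12, a log2 difference of -0.85 (SE 0.43, adjusted p = 0.199 by limma), with SIGLEC12 replicate 4 the lowest. Snord15a was at 4.15 and 3.84 in Control and at 3.80, 4.03 and 3.79 in SIGLEC12, a difference of -0.12 (SE 0.22) with overlapping groups. The difference between the pair was not tested. Rps3, a small-subunit ribosomal protein gene, had a log2 difference of 0.69 as deposited and of 0.15 after rescaling to the protein-coding total. Snord22 (U22) in Snhg1, an RNA needed for 18S maturation, at 6.06 and 5.62 in Control and 5.55, 6.03 and 5.12 in SIGLEC12, overlapped (-0.27, SE 0.33).

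Snord17, the most abundant C/D box gene in the SIGLEC12 tumors but not in Control, stood opposite to its class median. It was at 5.89 and 5.46 in Control and at 7.14, 7.12 and 6.58 in SIGLEC12, with means of 5.68 ± 0.30 (SD, n = 2) and 6.95 ± 0.32 (SD, n = 3). Every SIGLEC12 tumor was above both Controls, the log2 difference was 1.27 (SE 0.29, adjusted p = 0.0974 by limma), and it was 0.72 after rescaling to the protein-coding total. Its host Snx5 had a difference of 0.36 as deposited, near the median of 0.38 over all tested genes, and of -0.13 after rescaling. Snord42b in Rpl23a was listed at 0 in both Controls and stood at 1.32, 0.48 and 1.37 in SIGLEC12, so no fold is given. The neighbouring Snord42a reached 0.74 in Control replicate 1 and was listed at 0 in the other 4 tumors.

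The C/D box genes Snord118 and Snord13 differed in direction. Snord118 (U8), needed for maturation of the large-subunit RNAs, was at 3.22 and 3.36 in Control and at 3.15, 4.38 and 4.37 in SIGLEC12, a log2 difference of 0.67 (SE 0.40) with overlapping groups. Snord13 (U13), which has a role in 18S RNA, was at 3.58 and 3.26 in Control and at 2.16, 3.29 and 2.50 in SIGLEC12 (-0.77, SE 0.35), also overlapping. Both have no annotated host.

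In the H/ACA box class the 3 most abundant genes differed little as deposited. Snora74a was at 6.32 and 6.15 in Control and at 6.34, 6.94 and 6.32 in SIGLEC12 (log2 difference 0.30, SE 0.28, -0.25 after rescaling to the protein-coding total). Snora73b was at 6.32 and 5.90 in Control and at 6.38, 6.69 and 5.92 in SIGLEC12 (0.22, SE 0.31), and Snora73a at 5.43 and 4.99 in Control and at 5.19, 5.67 and 5.03 in SIGLEC12 (0.09, SE 0.29). The sign of all 3 was negative after rescaling to the protein-coding total. U17 acts in cutting of the precursor rather than as a modification guide. The groups overlapped for all 3. Snora44 in Snhg12 was at 4.88 and 4.03 in Control and at 3.61, 4.03 and 3.8 in SIGLEC12 (-0.64, SE 0.31), and Snora57 differed by -0.36 (SE 0.26). After rescaling to the protein-coding total, Snora44 stood at -1.16 and Snora57 at -0.89.

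Snora23 was at 2.81 and 2.99 in Control and at 3.49, 3.33 and 3.66 in SIGLEC12, above both Controls in every SIGLEC12 tumor (log2 difference 0.60, SE 0.20, adjusted p = 0.108 by limma), and at 184 bases it is among the longer members. After rescaling to the protein-coding total its difference was 0.10. Of the lower H/ACA box genes, Snora30 in Srcap was at 3.21 and 3.16 in Control and at 2.51, 2.57 and 2.94 in SIGLEC12 (-0.52, SE 0.20, adjusted p = 0.133 by limma). Snora62 in Rpsa was at 1.70 and 2.06 in Control and at 0.44, 1.17 and 1.18 in SIGLEC12 (-0.95, SE 0.28, adjusted p = 0.0988 by limma). In Snora17 and Snora68 the gap rested mostly on 1 tumor each. Snora17 was at 3.50 and 3.45 in Control and at 2.21, 3.32 and 3.34 in SIGLEC12 (-0.52, SE 0.37), and Snora68 at 3.16 and 3.33 in Control and at 2.67, 2.91 and 1.15 in SIGLEC12 (-1.0, SE 0.51). Snora78 (-0.44, SE 0.34), Snora43 (0.11, SE 0.35) and the C/D box gene Snord53 (0.08, SE 0.42) had differences near or within their errors.

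Host genes were found by position for 134 of the 141 members with coordinates, in 83 distinct genes, and 33 members lay in genes of ribosomal proteins. Of the 134, 70 lay in introns alone and 64 also overlapped an annotated exon. For 57 tested members the host was tested too. Their 46 hosts were mostly higher in SIGLEC12, with 43 of 46 positive, as were 87.2% of all tested genes. After rescaling to the protein-coding total, 21 of the 46 were positive (9 of 24 hosts of C/D and 12 of 23 hosts of H/ACA box genes), beside 51.1% of all tested genes, and 46 of the 57 snoRNAs lay below their host. The values that follow are as deposited. In the C/D box class, 31 members lay in 24 hosts, all of them positive, with medians of -0.53 for the snoRNAs and 0.44 for the hosts, and 28 of the 31 snoRNAs lay below their host. In the H/ACA box class, 26 members lay in 23 hosts, 20 of them positive, with medians of -0.02 and 0.46, and 22 snoRNAs lay below their host. A negative snoRNA with a positive host was seen for 24 of 31 C/D and 10 of 26 H/ACA box genes. Across genes, Spearman's rho between snoRNA and host was -0.47 for C/D (n = 31) and -0.044 for H/ACA (n = 26), as a description over points that share the same 5 samples and in part the same host.

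**Figure D5:**
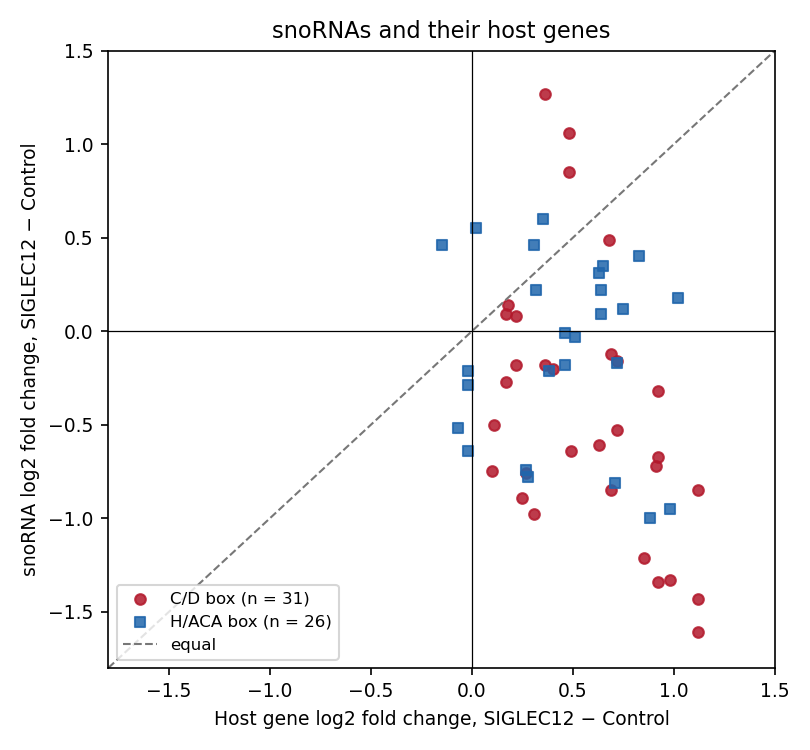
Log2 difference (SIGLEC12 minus Control) of each tested snoRNA (vertical axis) against that of its tested host gene (horizontal axis), C/D box genes as red circles (n = 31) and H/ACA box genes as blue squares (n = 26), with a dashed line where both are equal. Most points (50 of 57) lie below the line, and the 3 lowest are Snord65, Snord49b and Snord32a, whose hosts lie near 1.

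Other hosts with at least 3 members were Rpl23a, with a log2 difference of 0.48 (SE 0.23), Hspa8 at 0.49 (SE 0.24), Gas5 at 0.20 (SE 0.19), Snhg12 at -0.02 (SE 0.17) and 1810032O08Rik at -0.21 (SE 0.20). After rescaling to the protein-coding total, Gas5 stood at -0.32, Snhg12 at -0.38 and 2410006H16Rik at 0.63.

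The proteins that bind snoRNAs were expressed at low to moderate level and were slightly higher in SIGLEC12 as deposited. For the C/D box core (Fbl, which encodes the methyltransferase fibrillarin, with Nop56, Nop58 and Snu13) all 4 had positive log2 differences, with a median of 0.14. Fbl was at 2.58 and 2.18 in Control and at 2.33, 2.33 and 2.75 in SIGLEC12. For the H/ACA box core (Dkc1, which encodes the pseudouridine synthase dyskerin, with Gar1, Nhp2 and Nop10) all 4 were positive, with a median of 0.44. Dkc1 was at 2.54 and 2.13 in Control and at 2.59, 2.56 and 2.91 in SIGLEC12, and Nhp2 differed by 0.53. Of 12 assembly and transport factors 8 were tested, all positive, with a median of 0.32. None of the 16 tested genes was called by limma at the adjusted threshold, and 4 (Nhp2, Nop10, Pih1d1 and Ruvbl2) had an unadjusted p of at most 0.05 with a positive difference, beside 33.4% of all tested genes. On the same scale the median of all genes was 0.38. After rescaling to the protein-coding total the medians were -0.33, -0.03 and -0.01, with 0 of 4, 2 of 4 and 4 of 8 genes positive. Only the C/D box core was without a positive gene on that scale.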

How the data were processed

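Colon tumor RNA of 2 Control and 3 SIGLEC12 mice was sequenced with 100-base paired reads. The labels name a stranded total RNA kit and the study's methods an mRNA kit, and size selection against short RNA is not given in the sources used here. The study's methods also name 3 technical libraries per sample, with no word on how these were combined. The series describes 3 mice per condition, and a further Control was not analysed here. The submitters' processing notes name kallisto 0.45.0 and GRCm38. The authors deposited log2(TPM + 1) values, which keep no read depth, so no counting interval is given. A TPM of a transcript shorter than the sequenced fragments depends on an estimated effective length. Columns of values without a sample numbered 0.

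The members and lists were chosen with earlier results of these data known. Of the gene IDs, 98.45% were in GENCODE M21, the source of lengths, hosts (a gene on the same strand that spans the snoRNA), containment and sequences. For the deposited values limma 3.58.1 was run in R 4.3.3 (lmFit, eBayes with trend, two-sided) in 10338 genes with a TPM of at least 1 in at least 2 samples, with Benjamini-Hochberg adjustment over all of them and no covariate. Where nothing shows separate animals, p-values measure only the spread between these samples. Genes named were the 8 most abundant of each class and the 4 with the largest difference in each direction at a mean TPM of at least 5. Also named were snoRNAs of ribosomal RNA maturation, members in Gas5 and Snhg1, hosts of at least 3 members and snoRNA-binding proteins. Alternatives were another pseudocount, filters, 4 rescalings, no trend, sample weights and each sample left out.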

Additional observations from a re-analysis of the deposited data

How the results depend on the processing

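No paired analysis was possible because replicate numbers of the groups have 1 in common. Among values for single genes, 330 kept their direction and side of the threshold, 23 changed sign and 7 became called. The count of adjusted calls became 3 after rescaling to the snoRNA total (Snord59a, Snord42b and Snord65). It stayed at 0 with a SIGLEC12 sample left out. The snoRNA rescaling uses the members' own sum, and Snord59a and Snord42b passed the filter only through the group in which they were high. The share of all tested genes called on that scale was not taken, so nothing is read from this count. Where a Control is left out, the lone Control is assumed to vary like the other group. The unadjusted counts of higher and lower members were 1 and 3 with a filter of TPM at least 5, 0 and 16 on the protein-coding scale, 0 and 14 with median-ratio size factors and 0 and 15 after quantile normalization. With a sample left out they ranged from 1 to 4 (4 without Control replicate 1, 1 without SIGLEC12 replicate 4) and from 6 to 9. Beside the unadjusted counts on the protein-coding scale, 0.368% of all tested genes were higher and 1.37% lower. With the TPM filter, median-ratio factors, quantiles or a SIGLEC12 sample left out, the share of all tested genes was not taken. Nothing is read from these unadjusted counts. The C/D median was -0.24 without a filter and -0.59 to -0.23 with a sample left out. The H/ACA median was -0.38, -0.36 and -0.39 under the rescalings to the protein-coding total, median ratio and quantiles, and -0.38 to 0.04 with a sample left out. The class difference (H/ACA minus C/D) ranged from -0.15, without Control replicate 4, to 0.63 with a sample left out, and was 0.83 with a pseudocount of 0.1. At a TPM of at least 5, mean counts of detected genes in Control and SIGLEC12 were 12 and 8.67 for C/D (from 31.5 and 25.7) and 11.5 and 10.3 for H/ACA (from 27.0 and 24.3). The log2 ratio of the summed share moved from -0.23 to -0.77 (without the 4 most abundant entries) and -0.79 (of the protein-coding total) for C/D, and from 0.04 to -0.51 and -0.52 for H/ACA. Under the protein-coding, median-ratio and quantile scales the sign turned for Snora43 (-0.36, -0.34, -0.33), Snora73a (-0.45, -0.44, -0.49), Snora73b (-0.33, -0.31, -0.44), Snora74a (-0.25, -0.23, -0.37) and Snord53 (-0.38, -0.36, -0.35). Snora43 was also -0.06 with sample weights and -0.25 to 0.29 with a sample left out (lowest without SIGLEC12 replicate 4), and Snora73a ranged from -0.13 without Control replicate 4 to 0.31, with -0.10 without SIGLEC12 replicate 3. Snord15a was 0.03 without Control replicate 1. Snord53 ranged from -0.28 without Control replicate 1 to 0.46, with -0.17 without SIGLEC12 replicate 2 and -0.06 without SIGLEC12 replicate 4. The cause was not tested. The depth behind low values is unknown, which limits what can be said of the genes listed at 0.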
